A study of Homo sapiens with 9 samples.

Results

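The genes described here are 10 components of transforming growth factor β (TGF-β) signalling: the ligand genes TGFB1, TGFB2 and INHBA, the latency gene LTBP1, the receptor genes TGFBR1, TGFBR2 and TGFBR3, and the SMAD genes SMAD3, SMAD6 and SMAD7. They were chosen by symbol, with earlier results of these data known, and all 10 were found among the 58735 gene identifiers of the count table. RNA was sequenced from 786-0, a clear cell renal cell carcinoma (ccRCC) line that lacks functional VHL, which leaves HIF2α stable at normal oxygen. The 9 libraries fall into 3 groups of 3 replicates. The first group is untreated 786-0 WT (control), the second is 786-0 WT given 10 μM PT2385 for 48 h, and the third is 786-0 with HIF2α knocked out (786-0 KO). According to the labels, all of them were kept at 21% O2 for 48 h in DMEM with 5 mM glucose and 10% FBS, with no added TGF-β named. PT2385 is a small molecule that binds HIF2α and keeps it from pairing with its partner. Whether the KO cells are 1 clone, how the knockout was made and whether the control cells received the drug's vehicle is not given in the sources used here. The labels do not say that replicates came from separate cultures, so the p-values measure the spread between these libraries, which may be technical.

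TGF-β ligands are secreted in a latent form, bound to their own propeptide and, through it, to a latent TGF-β binding protein that anchors the complex in the extracellular matrix. Once freed, for instance by integrins, the ligand brings the type II receptor together with the type I receptor, which phosphorylates SMAD2 and SMAD3. These join SMAD4 and act on target genes in the nucleus, while SMAD6 and SMAD7 are inhibitory SMADs that the pathway itself induces. Bone morphogenetic proteins (BMPs) signal through a parallel set of receptors and SMADs. In the kidney the pathway is known for its part in fibrosis and epithelial plasticity.

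Library totals ran from 11881000 to 14730081 counts. EPAS1, the gene of HIF2α, had between 233 and 270.3 CPM in control (read counts scaled to a common library size, with TMM factors over the 9 libraries) and between 20.2 and 24.9 in KO, while it had 219 to 248 with PT2385. EGLN3, a classical HIF target, had 119.7 to 139 CPM in control, 13.6 to 16.8 with PT2385 and 1.87 to 2.88 in KO. Of 8 renal epithelial markers, 7 had more than 3 counts in at least 1 library of every group and LRP2 was at 0 throughout, with a summed level of 5819 to 6289 CPM in control, 5733 to 6282 with PT2385 and 5852 to 6237 in KO. Most of that sum was VIM, at 4549 to 4910 CPM in control, 4207 to 4661 with PT2385 and 4093 to 4487 in KO. The sum therefore says little about the other markers. Of the 7 tested, 3 were called higher and 1 lower with PT2385 (2 lower with the replicate number as a block, which added VIM), and 4 higher and 1 lower in KO, and their part in the results was not tested. In KO, PAX2 fell by 1.30 on the log2 scale, and the widest rises were those of CDH16 (1.32), CDH6 (1.03) and KRT18 (0.85). Over all genes tested, 7.70% were called with PT2385 and 30.1% in KO. None of 5 endothelial markers and 1 of 5 leukocyte markers (CSF1R) passed 3 counts in any library, with summed levels of at most 0.167 and 1.45 CPM.

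The members with the widest changes, LTBP1, TGFBR3, SMAD6 and INHBA, are shown with the 300 bases around their RefSeq canonical start (250 before, 50 after; GRCh38.p14), since HIF2α binds DNA at the core of the hypoxia response element. Capitals mark the letters ACGTG or GCGTG, searched on both strands, and positions are counted from the start, whose own base is 0. The windows lie at chr2:32946703-32947002 on the + strand for LTBP1, chr1:91886102-91886401 on the - strand for TGFBR3, chr15:66701986-66702285 on the + strand for SMAD6 and chr7:41703041-41703340 on the - strand for INHBA, and each is written 5′ to 3′ along its gene.
LTBP1: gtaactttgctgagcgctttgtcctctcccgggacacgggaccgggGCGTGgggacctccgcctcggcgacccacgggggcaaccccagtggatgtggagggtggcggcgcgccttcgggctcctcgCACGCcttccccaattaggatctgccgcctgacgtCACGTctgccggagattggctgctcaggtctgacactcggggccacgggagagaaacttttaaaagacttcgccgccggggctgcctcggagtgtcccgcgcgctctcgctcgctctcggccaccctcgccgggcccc
TGFBR3: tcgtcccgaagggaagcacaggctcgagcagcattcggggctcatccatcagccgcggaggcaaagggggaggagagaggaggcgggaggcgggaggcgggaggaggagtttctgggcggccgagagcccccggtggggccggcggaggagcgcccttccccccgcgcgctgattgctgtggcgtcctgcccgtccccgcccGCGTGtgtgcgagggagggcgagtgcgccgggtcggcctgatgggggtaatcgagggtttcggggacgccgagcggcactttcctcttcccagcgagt
SMAD6: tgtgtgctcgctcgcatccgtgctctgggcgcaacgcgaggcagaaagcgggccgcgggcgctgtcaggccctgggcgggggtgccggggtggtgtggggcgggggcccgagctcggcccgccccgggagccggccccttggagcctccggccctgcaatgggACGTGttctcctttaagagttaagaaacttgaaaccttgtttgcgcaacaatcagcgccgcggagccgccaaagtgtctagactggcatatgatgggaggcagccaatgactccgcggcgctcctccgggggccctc
INHBA: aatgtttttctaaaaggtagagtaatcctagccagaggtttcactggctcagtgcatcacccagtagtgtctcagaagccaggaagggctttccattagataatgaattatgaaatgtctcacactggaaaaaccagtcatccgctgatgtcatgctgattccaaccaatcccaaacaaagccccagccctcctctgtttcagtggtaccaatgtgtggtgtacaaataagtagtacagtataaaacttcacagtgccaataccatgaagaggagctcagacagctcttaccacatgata
LTBP1 held 3 such cores, at positions -204 to -200, -123 to -119 and -88 to -84, TGFBR3 held 1 at -48 to -44, SMAD6 held 1 at -87 to -83 and the INHBA window held 0. Of the members not shown, SMAD3 held 5, TGFB2 3, TGFBR1 2, TGFB1 and TGFBR2 1 each and SMAD7 0, with overlapping matches counted singly. A core stood in 48.4% of all 35116 promoter windows of this length (17012 windows). That share is not matched for the content of G and C, letters that the core itself holds. G and C made up 68.7% of the LTBP1 window, 71.7% of TGFBR3, 68.0% of SMAD6 and 43.3% of INHBA. The SMAD box CAGAC, searched on both strands, stood in 45.3% of all 35116 windows, and LTBP1 held 2 and INHBA 1. A match describes the letters only, and binding was not measured here.

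The 10 members moved in both directions, and 10 were called in KO against 5 with PT2385. With PT2385, INHBA and SMAD6 rose and TGFB1, LTBP1 and TGFBR1 fell, which makes 5 of 10 members called by edgeR's quasi-likelihood test (Benjamini-Hochberg adjusted p under 0.05 over all genes tested). Of all 15089 genes tested in that comparison, 7.70% were called, 3.08% as higher and 4.62% as lower, and with the replicate number as a block 15.3% (2305 genes) and 6 members were. In KO all 10 members were called against control, INHBA, TGFBR2 and TGFBR3 as higher and the other 7 as lower, where 30.1% of the 15192 genes tested were called, 14.7% higher and 15.4% lower. Between KO and PT2385, 5 of 10 were called, TGFBR2 and TGFBR3 as higher in KO and TGFB2, LTBP1 and SMAD6 as lower, where 18.8% of 15402 genes were called, 8.47% higher and 10.3% lower. The median log2 fold change of the members was -0.12 with PT2385, -0.31 in KO and -0.14 between KO and PT2385, against 0.00 over all genes tested in each comparison. All 10 passed the filter on low counts in every comparison, but LTBP1 passed those with KO only through the other group, where it was higher. With at least 10 counts required in every library, LTBP1 was not tested in KO. Then 9 members were called in KO and 4 between KO and PT2385. The PT2385 and KO changes are taken against the same control libraries, so they are not independent of each other. In bulk RNA, a change of level in every cell and a change in the share of cells with that level cannot be told apart. Without control replicate 1, 2 or 3, only LTBP1 stayed called with PT2385, without PT2385 replicate 2 there were 3 members, and without PT2385 replicate 1 or 3 there were 4 and 5.

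**Figure D1:**
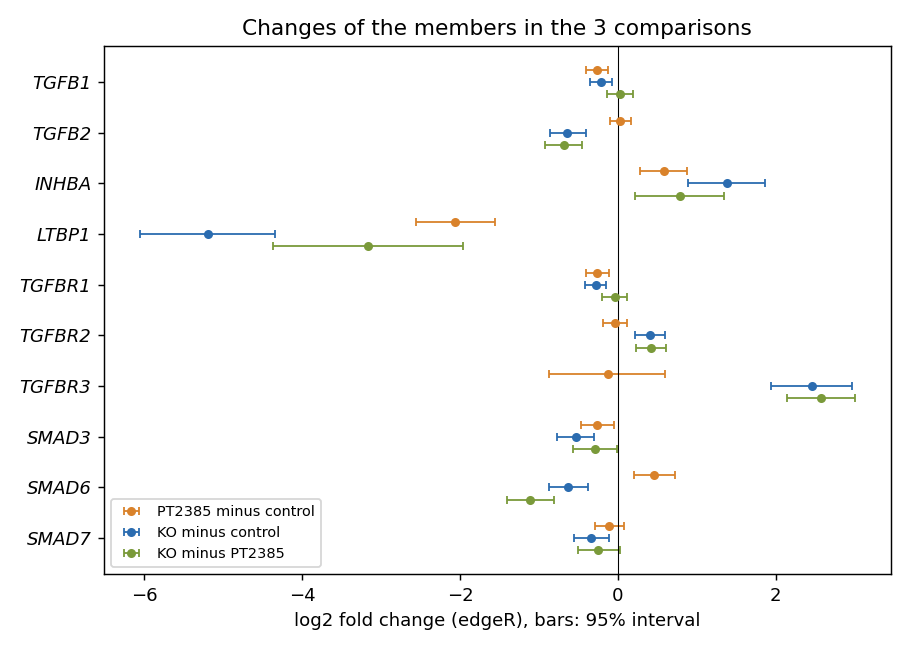
Log2 fold change of each member (x axis) in the 3 comparisons, with 95% intervals from the edgeR fit. LTBP1 lay far to the left in all 3 comparisons (-2.06, -5.2 and -3.17), TGFBR3 to the right in both comparisons with KO (2.46 and 2.57), and SMAD6 on opposite sides with PT2385 (0.46) and in KO (-0.63).

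Per exon length, in TPM (levels divided by exon length and scaled to a common total, with exon lengths from GENCODE release 44), the levels of TGFB1 and TGFB2 stood at the top and that of TGFBR3 at the bottom in control. The mean levels in control were 179.8 TPM for TGFB1, 171 for TGFB2, 140.5 for SMAD3, 86.1 for SMAD7, 51.0 for TGFBR1, 41.8 for TGFBR2, 37.6 for INHBA, 13 for SMAD6, 3.72 for LTBP1 and 0.724 for TGFBR3. Neighbours in this order whose libraries overlapped were TGFB1 and TGFB2, TGFB2 and SMAD3, and TGFBR2 and INHBA. With PT2385 the level of INHBA stood at 59.2 TPM, above TGFBR1 at 44.7 and TGFBR2 at 42.7, and the libraries of SMAD7, INHBA, TGFBR1 and TGFBR2 overlapped from each neighbour to the next. LTBP1 dropped to 0.944 TPM and overlapped with TGFBR3 at 0.679. In KO the level of INHBA, 97.5 TPM, reached that of TGFB2 (109) and SMAD3 (95.9), with overlapping libraries from TGFB2 through INHBA, SMAD3 and SMAD7 to TGFBR2. TGFBR3 at 3.90 TPM there lay above LTBP1 at 0.0989 TPM in every library, the reverse of control.

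**Figure D2:**
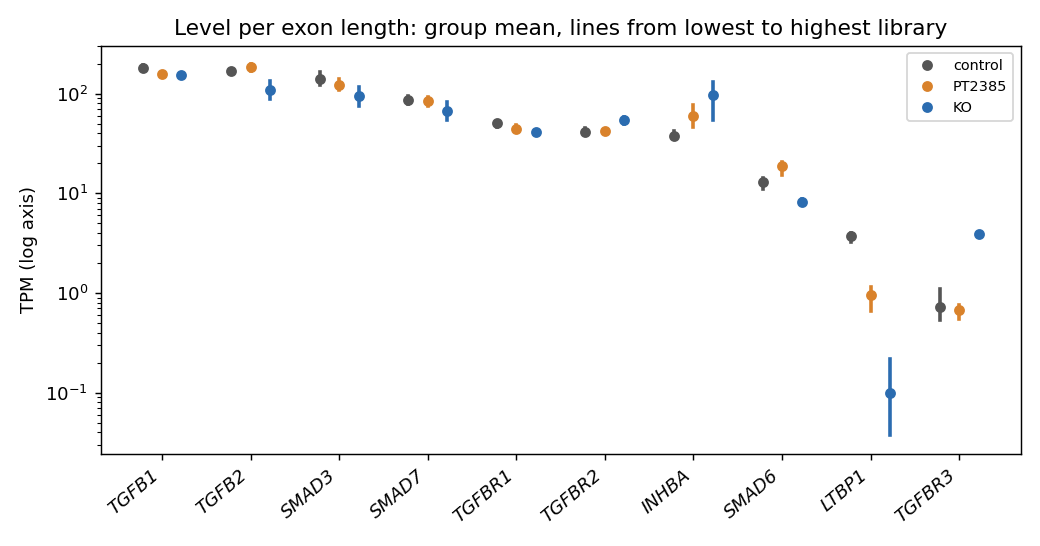
Level per exon length (TPM, log axis) of each member, ordered by the control mean, with points for the mean of 3 libraries and lines from the lowest to the highest library. LTBP1 dropped from 3.72 TPM in control to 0.944 with PT2385 and 0.0989 in KO, while TGFBR3 stood at 0.724, 0.679 and 3.90.

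TGFB1 (ENSG00000105329, chromosome 19, 41301587 to 41353922, minus strand) encodes TGF-β1, the most widely expressed of the TGF-β ligands. Its level was 138, 139.8 and 144 CPM in control replicates 1 to 3, 112, 118 and 122 with PT2385 and 122, 127 and 111 in KO. Every treated and every KO library lay below every control library, and PT2385 and KO overlapped. TGFB1 fell by 0.26 on the log2 scale with PT2385 (SE 0.0611, edgeR adjusted p = 0.0215) and by 0.22 in KO (SE 0.0655, adjusted p = 0.0288), from a mean of 141 ± 3.19 CPM to 117 ± 5.19 and 119.9 ± 8.05 (SD, n = 3). Between KO and PT2385 the difference was 0.03 (95% interval -0.14 to 0.19). The PT2385 call was lost without PT2385 replicate 2 or any 1 control replicate (log2 fold changes of -0.29 to -0.23 and adjusted p of 0.00814 to 0.106 over the 6 fits that each left out a library), and the KO call without KO replicate 1 or 3 or any 1 control replicate (-0.26 to -0.16, adjusted p 0.0199 to 0.0917). TGFB1 shares 215 exon bases with HNRNPUL1 on the opposite strand, which had 39855 counts over the 9 libraries against 14807 for TGFB1, and whether counting used strand is not given in the sources used here.

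TGFB2 (ENSG00000092969, chromosome 1, 218345336 to 218444619, plus strand) encodes TGF-β2, a ligand that needs the co-receptor encoded by TGFBR3 for strong binding. It had 255, 247 and 239.6 CPM in control, 266, 259 and 237 with PT2385 and 153, 134 and 186 in KO. The KO libraries all lay below the other 6, among which control and PT2385 overlapped. TGFB2 fell by 0.64 in KO against control (SE 0.10, adjusted p = 0.000675) and by 0.69 against PT2385 (SE 0.109, adjusted p = 0.00133), while the difference between PT2385 and control was 0.03 (95% interval -0.10 to 0.17, adjusted p = 0.817). The antisense gene TGFB2-AS1, which shares 701 exon bases with it, had 65 counts in all libraries together against 25686 for TGFB2.

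INHBA (ENSG00000122641, chromosome 7, 41667168 to 41705834, minus strand) encodes the βA subunit, which pairs with itself to form activin A, a ligand that also signals through SMAD2 and SMAD3. It had 70.1, 74.3 and 79.1 CPM in control, 144, 102 and 89.6 with PT2385 and 212, 113 and 252 in KO. All PT2385 and KO libraries lay above all control libraries, and the KO libraries were spread widely, with replicate 2 inside the PT2385 range. INHBA rose by 0.58 with PT2385 (SE 0.139, adjusted p = 0.0246) and by 1.38 in KO (SE 0.220, adjusted p = 0.000723), a 2.6-fold change. KO lay 0.78 above PT2385 (95% interval 0.22 to 1.34, adjusted p = 0.0551), and that difference was called without KO replicate 2 (1.05, adjusted p = 0.00202) or without PT2385 replicate 1 (1.01, adjusted p = 0.0239), in a range of 0.00202 to 0.168 over the 6 fits. The PT2385 call was lost without any 1 control replicate (0.36 to 0.72 and adjusted p of 0.000236 to 0.111 over the 6 fits) and with all 9 libraries in a single model, where the 3 groups share 1 estimate of the spread (adjusted p = 0.185).

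TGFB1 and TGFB2 made up nearly all of the ligand mRNA of the 3 TGF-β genes, and TGFB3 the remainder. Per exon length, TGFB1 held 49.9, 51.0 and 52.5% of their sum in control, 43.5, 45.6 and 48.5% with PT2385 and 59.2, 63.2 and 52.1% in KO. The PT2385 libraries all lay below control, while KO replicate 3 lay within the control range. The mean share was 51.1 ± 1.32% in control, 45.9 ± 2.49% with PT2385 and 58.1 ± 5.62% in KO (SD, n = 3). Its difference was -5.27 percentage points for PT2385 (p = 0.1, two-sided exact permutation test), 7.0 for KO (exact p = 0.2) and 12.3 between KO and PT2385 (exact p = 0.1), where 0.1 is the smallest p that 3 against 3 libraries allow. TGFB3 held 0.328% in control, 0.698% with PT2385 and 0.795% in KO.

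**Figure D3:**
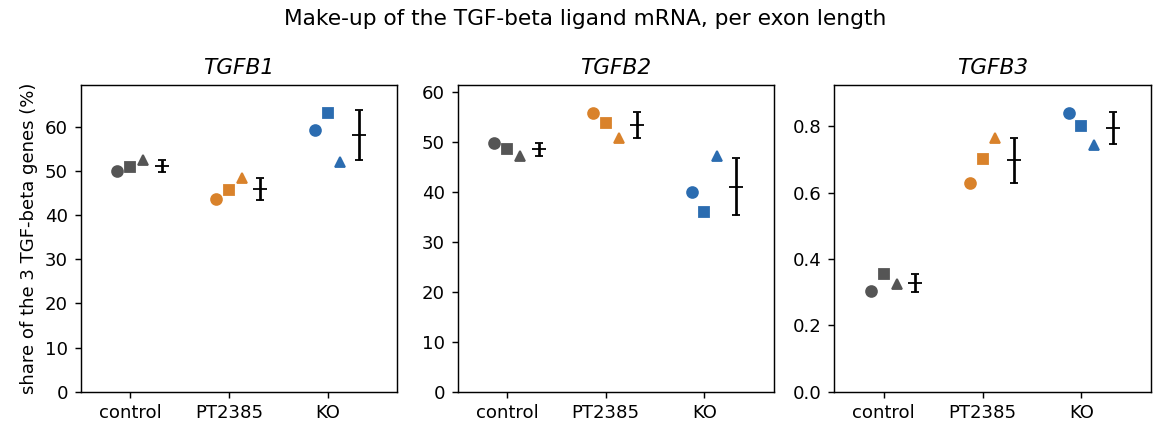
Share of TGFB1, TGFB2 and TGFB3 in their summed level per exon length (%), with circles, squares and triangles for replicates 1, 2 and 3 and black bars for mean ± SD. TGFB1 lay between 43.5 and 48.5% with PT2385, below the 49.9 to 52.5% of control, and between 52.1 and 63.2% in KO.

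LTBP1 (ENSG00000049323, chromosome 2, 32946953 to 33399509, plus strand) encodes a latent TGF-β binding protein, the matrix anchor of the latent complex, and changed most of the 10 members in all 3 comparisons. It had 84, 87 and 66 counts in control, 21, 26 and 16 with PT2385 and 5, 1 and 1 in KO, or 7.04, 7.16 and 5.52 CPM, 1.69, 1.94 and 1.12 CPM, and 0.386, 0.0693 and 0.0687 CPM. The 3 groups did not overlap, and 2 of the 3 KO libraries were under the 3 counts taken as the floor of detection. In the comparisons with KO it passed the filter on low counts only through the other group, where it was higher. LTBP1 fell in all 3 comparisons, with log2 fold changes of -2.06 for PT2385 (SE 0.230, edgeR adjusted p = 0.000114), -5.2 for KO (SE 0.390, adjusted p = 2.79e-06) and -3.17 for KO against PT2385 (SE 0.543, adjusted p = 0.00208). By the counts alone it was 4.14-fold lower with PT2385 (63 against 237 counts, 95% counting interval 3.12 to 5.55), 39.3-fold lower in KO (7 against 237, interval 18.8 to 98.8) and 9.50-fold lower in KO than with PT2385 (interval 4.35 to 24.6). These intervals cover counting error only. All 3 calls stood in each of the 6 fits that left out 1 library, with log2 fold changes of -2.24 to -1.85 for PT2385, -6.37 to -4.83 for KO and -4.35 to -2.79 for KO against PT2385. Both lowest KO values, -6.37 and -4.35, came without KO replicate 1, which held 5 of the 7 KO counts. Its promoter window held 3 hypoxia response element cores, as did that of TGFB2, while that of SMAD3 held 5. ENSG00000285577, which shares 249 exon bases on the opposite strand, had 2 counts in all.

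TGFBR1 (ENSG00000106799, chromosome 9, 99104038 to 99154192, plus strand), the type I receptor kinase of TGF-β, had 101, 93.2 and 97.9 CPM in control, 86.3, 77.2 and 81.5 with PT2385 and 79.5, 79.9 and 79.1 in KO. All PT2385 and KO libraries lay below all control libraries and overlapped each other. It fell by 0.26 with PT2385 (SE 0.0679, adjusted p = 0.0383) and by 0.28 in KO (SE 0.0614, adjusted p = 0.00522), with a difference of -0.04 between KO and PT2385 (95% interval -0.20 to 0.12). Its PT2385 call was lost without PT2385 replicate 2 or any 1 control replicate (-0.30 to -0.22 and adjusted p of 0.0188 to 0.194 over the 6 fits) and with scaling by library size alone (adjusted p = 0.0591).

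TGFBR2 (ENSG00000163513, chromosome 3, 30606601 to 30694142, plus strand) encodes the type II receptor, which binds the ligand first. It had 63.8, 70.4 and 71.3 CPM in control, 67.4, 64.0 and 69.3 with PT2385 and 81.3, 100.1 and 87.0 in KO. The KO libraries lay above the other 6, which overlapped. TGFBR2 rose by 0.40 in KO against control (SE 0.0848, adjusted p = 0.00436) and by 0.42 against PT2385 (SE 0.0873, adjusted p = 0.00654), and with PT2385 the difference from control was -0.04 (95% interval -0.19 to 0.11, adjusted p = 0.813).

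TGFBR3 (ENSG00000069702, chromosome 1, 91680343 to 91906335, minus strand) encodes betaglycan, a co-receptor that presents TGF-β2 and also binds inhibin. It had 13, 14 and 26 counts in control, 13, 20 and 21 with PT2385 and 105, 118 and 114 in KO, or 1.09, 1.15 and 2.17 CPM, 1.05, 1.49 and 1.47 CPM, and 8.10, 8.18 and 7.83 CPM. The KO libraries were all far above the other 6 and close to each other, with a mean of 8.04 ± 0.182 CPM against 1.47 ± 0.608 in control (SD, n = 3). TGFBR3 rose by 2.46 in KO against control (SE 0.233, adjusted p = 1.7e-05), a 5.49-fold change, and by 2.57 against PT2385 (SE 0.195, adjusted p = 9.59e-06). With PT2385 the difference was -0.13 (95% interval -0.87 to 0.60, adjusted p = 0.870), a wide interval at these low counts.

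**Figure D4:**
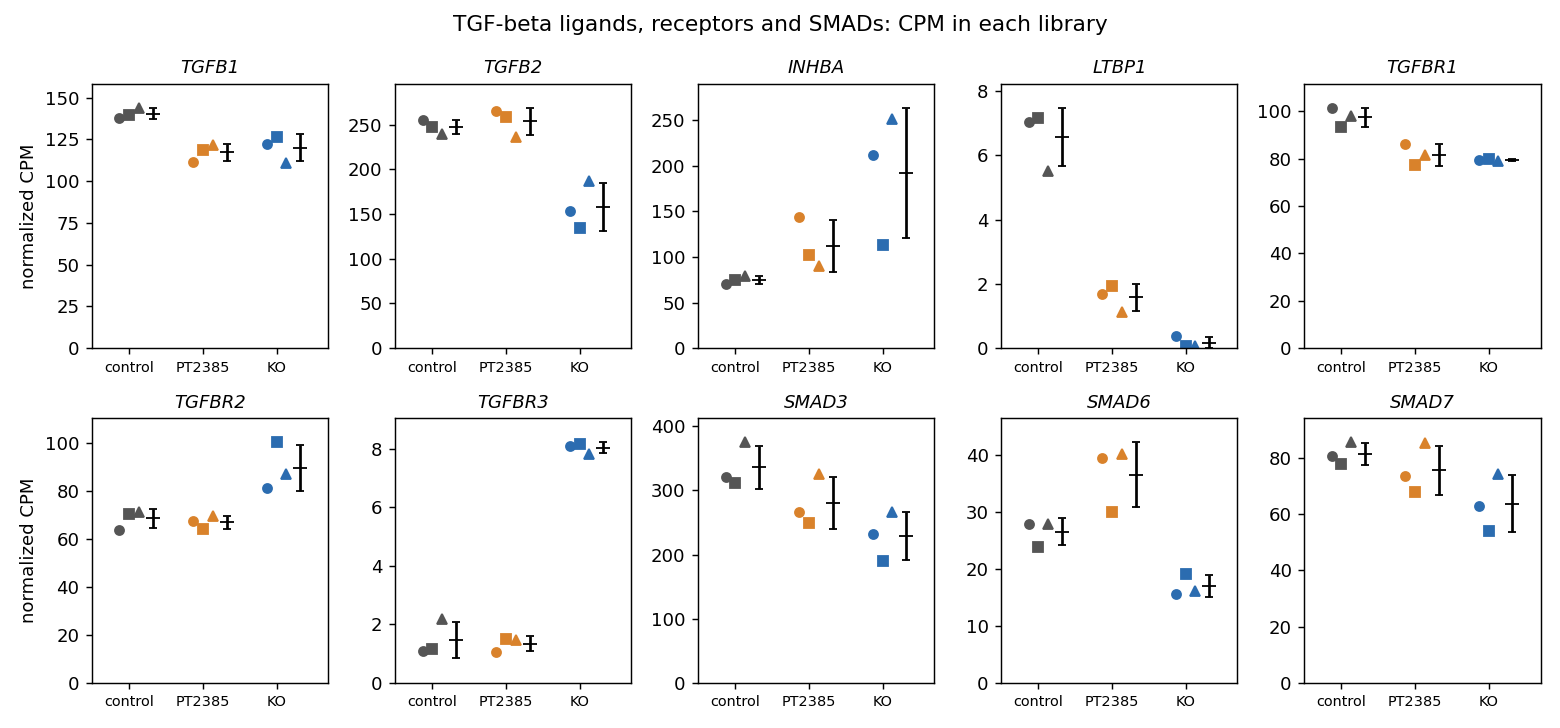
Level of each member in every library (normalized CPM, axes from 0), with circles, squares and triangles for replicates 1, 2 and 3 and black bars for mean ± SD. LTBP1 went down stepwise from 5.52 to 7.16 CPM in control to at most 0.386 in KO, TGFBR3 was high in KO alone (7.83 to 8.18 CPM), and SMAD6 was higher with PT2385 (30.0 to 40.1 CPM) and lower in KO (15.7 to 19.1) than in control (23.8 to 27.9).

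SMAD3 (ENSG00000166949, chromosome 15, 67063763 to 67195173, plus strand), the receptor-activated SMAD that binds DNA directly, had 320.3, 312 and 375 CPM in control, 266, 249.5 and 326 with PT2385 and 232, 191 and 266 in KO. All KO libraries lay below all control libraries, while PT2385 overlapped with both groups, and replicate 3 was the highest in each group. SMAD3 fell by 0.53 in KO (SE 0.109, adjusted p = 0.00340). With PT2385 the log2 fold change was -0.26 (SE 0.0972, adjusted p = 0.142), and with the replicate number as a block it was called at -0.27 (adjusted p = 0.000841). It was also called without PT2385 replicate 3 (-0.38, adjusted p = 0.00280), in a range of 0.00280 to 0.422 over the 6 fits. Between KO and PT2385 the difference was -0.29 (95% interval -0.57 to -0.01, adjusted p = 0.143), called without KO replicate 3 (-0.41, adjusted p = 0.0322, in a range of 0.0322 to 0.429).

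SMAD6 (ENSG00000137834, chromosome 15, 66702236 to 66782849, plus strand), the inhibitory SMAD that acts mainly on BMP receptors, was the one member called in opposite directions with PT2385 and in KO. It had 27.8, 23.8 and 27.9 CPM in control, 39.4, 30.0 and 40.1 with PT2385 and 15.7, 19.1 and 16.1 in KO. The 3 groups did not overlap, with KO lowest and PT2385 highest. SMAD6 rose by 0.46 with PT2385 (SE 0.117, adjusted p = 0.0341), fell by 0.63 in KO (SE 0.113, adjusted p = 0.00159), and fell by 1.11 in KO against PT2385 (SE 0.133, adjusted p = 0.000234), which compares those 2 groups directly. KO is labelled as a knockout, made in a way not given, and PT2385 is a 48 h treatment. Whether these groups differ in more than how HIF2α was blocked was not tested. EGLN3 also stood higher with PT2385 than in KO (log2 fold change of KO against PT2385 -2.61, edgeR adjusted p = 5.74e-06). SLC2A1, another HIF target, stood lower with PT2385 than in KO (0.49, adjusted p = 0.00161). VEGFA, also a HIF target, had a difference of -0.02 (adjusted p = 0.926). The bearing of these genes on SMAD6 was not tested. The calls of KO against control and against PT2385 stood in all 6 fits without 1 library. The PT2385 call was lost without PT2385 replicate 1 or 3 or any 1 control replicate, with log2 fold changes of 0.39 to 0.58 and adjusted p of 0.00900 to 0.160 over the 6 fits.

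SMAD7 (ENSG00000101665, chromosome 18, 48919853 to 48950965, minus strand), the inhibitory SMAD that blocks the TGF-β type I receptor, had 80.5, 77.8 and 85.5 CPM in control, 73.7, 68.0 and 85.1 with PT2385 and 63.0, 54.1 and 74.3 in KO. KO lay below control in every library, and PT2385 overlapped with both. It fell by 0.34 in KO (SE 0.101, adjusted p = 0.0266), and the difference was -0.11 with PT2385 (95% interval -0.29 to 0.08, adjusted p = 0.517). The KO call was lost without KO replicate 1 or 2 or any 1 control replicate (-0.46 to -0.23, adjusted p of 0.000483 to 0.0946 over the 6 fits). KO and PT2385 differed by -0.25 (adjusted p = 0.189), called without KO replicate 3 (-0.37, adjusted p = 0.0344, in a range of 0.0344 to 0.495).

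The 77 other genes of the pathway, in 7 lists of which 5 genes stand in 2 lists, were read beside the members. Each list count below stands beside the share of all genes tested that were called. That share was 7.70% with PT2385 (15.3% with the replicate block), 30.1% in KO and 18.8% between KO and PT2385. Of the 14 other ligands, 6 were tested. TGFB3, the third TGF-β ligand, had 16 to 19 counts per control library, and rose by 0.98 with PT2385 (adjusted p = 0.0244) and 0.87 in KO (adjusted p = 0.0146). GDF15, a distant family member induced by cell stress, went from 2.59 to 2.85 CPM in control to 4.86 to 5.31 with PT2385 (log2 fold change 0.87) and 24.7 to 43.3 in KO (3.67). INHBB, the βB subunit of activin B, had log2 fold changes of -0.72 with PT2385 and -1.21 in KO, both called and opposite to INHBA. BMP8B fell by 2.11 in KO (adjusted p = 4.26e-05), though reads shared with its near-identical copy BMP8A could be split between them. That made 2 ligands higher and 1 lower with PT2385 (3 higher with the replicate block, which added GDF11), with a list median of 0.17, and 3 higher and 3 lower in KO, with a median of 0.01. TGFB3 lost its PT2385 call without PT2385 replicate 2 or 3 or any 1 control replicate (adjusted p of 0.0265 to 0.0946 over the 6 fits) and its KO call without control replicate 1 (0.0244 to 0.0512), and both with DESeq2. GDF15 lost its PT2385 call in the model of all libraries (adjusted p = 0.0549).

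Genes of latency and activation moved in both directions too. Of 10 such genes 9 were tested, and 3 were higher and 1 lower with PT2385 (median 0.06), and 4 higher and 2 lower in KO (median 0.13). ITGB8, the integrin subunit that frees latent TGF-β, had 339, 425 and 357 CPM in control, 91.2, 96.3 and 79.0 with PT2385 and 90.8, 100.1 and 80.7 in KO. Its log2 fold changes were -2.08 with PT2385 (adjusted p = 3.89e-08) and -2.03 in KO (adjusted p = 9.83e-08), with no overlap with control. ITGB6, another integrin subunit that frees latent TGF-β, rose by 0.90 and 1.40, from 5.10 to 5.68 CPM in control to 10.1 to 10.3 with PT2385 and 12.8 to 15.2 in KO. LTBP2, a relative of LTBP1 that does not bind latent TGF-β, rose by 0.99 with PT2385 and by 2.29 in KO, and LTBP3, a binding protein of the same family, rose by 0.91 in KO. THBS1, thrombospondin-1, an activator of latent TGF-β, had 963 to 1439 CPM in control and rose by 0.58 with PT2385 and 0.84 in KO. The PT2385 call of THBS1 was lost without PT2385 replicate 2 or control replicate 1 or 2 (adjusted p of 0.00231 to 0.0948 over the 6 fits) and with DESeq2 and the model of all libraries, and its KO call without control replicate 1 (0.0032 to 0.0614) and with DESeq2. That of LTBP2 with PT2385 was lost without control replicate 1 (0.0083 to 0.0611).

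Calls among the 12 other receptors and co-receptors came from KO, where 30.1% of all genes tested were called against 7.70% with PT2385. Of 8 tested, 0 were called with PT2385 (1 with the replicate block, at a list median of -0.05 without it), and 4 were lower and 0 higher in KO (median -0.20). The log2 fold changes of those 4 were -0.86 for BAMBI, a decoy receptor, -0.54 for BMPR1B and -0.24 for BMPR1A, type I receptors of BMPs, and -0.31 for ACVR2B, a type II receptor of activins. Leaving out 1 library ended the call of ACVR2B (control replicate 1 or 2 or KO replicate 1 or 3, adjusted p of 0.0298 to 0.12 over the 6 fits, lost with DESeq2 too at 0.0592), BMPR1A (control replicate 1 or 3, 0.0189 to 0.0834) and BMPR1B (control replicate 2, 0.00646 to 0.0668). Of the 5 other SMADs, all tested, 0 were called with PT2385 (1 with the replicate block), and SMAD9, a BMP-activated SMAD, fell by 0.97 in KO (adjusted p = 0.000141). SMAD2 and SMAD4, the partners of SMAD3, had KO differences of 0.05 (adjusted p = 0.563) and -0.19 (adjusted p = 0.0616, and 0.0492 with the replicate block). Of 18 SMAD regulators and ligand antagonists, 13 were tested. NEDD4L, a ubiquitin ligase for activated SMADs, fell by 0.26 with PT2385 and was the one called there (1 higher and 1 lower with the replicate block, median -0.06 without it). That call was lost without PT2385 replicate 2 or any 1 control replicate (adjusted p of 0.00447 to 0.086 over the 6 fits) and in the model of all libraries. In KO 1 was higher and 4 lower (median -0.04), and the 4 were SMURF2 (-0.49), a ubiquitin ligase that joins SMAD7, PMEPA1 (-0.39) and SKIL (-0.33), which restrain SMAD signalling, and TGIF2 (-0.34), a transcriptional co-repressor. The call of TGIF2 was lost without KO replicate 1 or 2 or control replicate 1 or 2 (adjusted p of 0.017 to 0.186 over the 6 fits) and with DESeq2 (0.052), and that of PMEPA1 without control replicate 3 (0.000816 to 0.0529).

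TGF-β target genes were called in both directions. Of 16 such genes 14 were tested, and 6 were higher and 3 lower with PT2385 (4 lower with the replicate block, which added JUNB, median 0.40 without it), against 5 higher and 7 lower in KO (median -0.35). FN1, fibronectin, had 4577, 4679 and 3370.3 CPM in control, 9138, 9488 and 6827 with PT2385 and 27610.4, 25883 and 22098 in KO, with log2 fold changes of 1.01 (adjusted p = 0.000407) and 2.59 (adjusted p = 7.97e-08). CCN2, a matricellular protein, rose by 1.0 and 1.38, and CDKN1A, the cell cycle inhibitor p21, by 0.58 and 2.20. TGFBI, a secreted matrix protein named for its induction by TGF-β, had log2 fold changes of -0.32 and -1.43, from 1541 to 1834 CPM in control to 577 to 648 in KO, the first lost without PT2385 replicate 2 or control replicate 1 or 2 (adjusted p of 0.00548 to 0.0725 over the 6 fits). BHLHE40, a repressor that is a HIF target as well, had -0.94 and -0.71. Several of these genes answer to other pathways too.

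Among the BMP target genes, as for SMAD6, calls with PT2385 were upward in the fit without the block and calls in KO downward. Of 7 such genes, all 7 were tested with PT2385 and 2 were higher and 0 lower (2 higher and 2 lower with the replicate block, median 0.05 without it), while of the 6 tested in KO 0 were higher and 4 lower (median -0.91), and in KO against PT2385 5 of the same 6 were lower (median -0.96). ID4 is left out of both KO counts, since it passed the filter on low counts only with the PT2385 libraries, where it was high. ID1 and ID3, inhibitors of helix-loop-helix factors that BMP signalling induces, rose with PT2385. ID1 had 71.4, 68.4 and 74.7 CPM in control, 144, 126 and 139 with PT2385 and 59.0, 68.0 and 60.9 in KO. It rose by 0.93 with PT2385 (SE 0.0706, adjusted p = 4.16e-06), had a difference of -0.18 in KO (adjusted p = 0.0977), and -1.13 in KO against PT2385 (adjusted p = 7.45e-06). ID3 had 93.5, 92.5 and 93.7 CPM in control, 133, 131 and 128 with PT2385 and 40.4, 49.7 and 46.3 in KO. It rose by 0.48 with PT2385 (adjusted p = 0.000222) and fell by 1.02 in KO (adjusted p = 3.62e-06), and KO against PT2385 gave -1.52 (SE 0.0846, adjusted p = 1.51e-06). ATOH8, a helix-loop-helix factor, fell by 1.11 in KO (adjusted p = 0.000989).

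**Figure D5:**
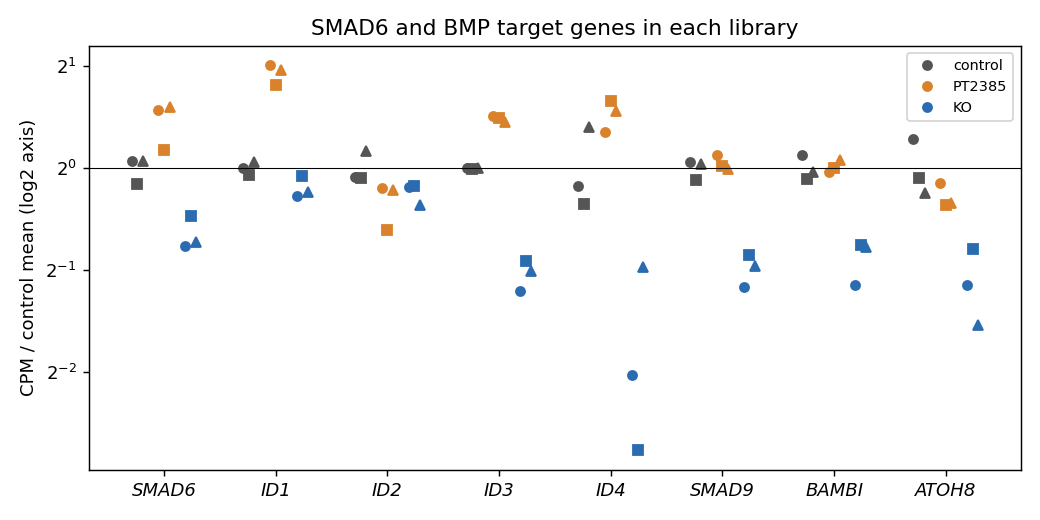
CPM of SMAD6 and 7 BMP target genes in every library, divided by the control mean of the gene (log2 axis), with circles, squares and triangles for replicates 1, 2 and 3. SMAD6, ID1 and ID3 lay above control with PT2385 in all 3 libraries and below it in KO, and ID4, which had 0.139 to 1.49 CPM in all libraries, was too low to be tested in KO against control.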

How the data were processed

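RNA from 9 samples of 786-0 cells, 3 each of control, PT2385 and KO, was sequenced. According to the methods and the processing notes, the authors trimmed reads with cutadapt, aligned them to GRCh38 with STAR and deposited featureCounts counts per gene, which are raw and not normalized. Tool versions, the annotation release and the strandedness of counting are not given in the sources used here. All 9 columns matched a labelled sample and 0 were left out. Groups came from the labels. Of 58735 identifiers, 58207 were paired with a symbol and exon length in GENCODE release 44, which gave TPM.

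Each pair of groups was fitted in its own model with edgeR 4.0.16 (R 4.3.3). Libraries were scaled by TMM, filterByExpr removed low genes (minimum 10 counts), and quasi-likelihood F tests were adjusted by Benjamini-Hochberg over the genes tested, with adjusted p under 0.05 as the call. CPM used TMM factors over all 9 libraries. The number of replicates and library totals of 11881000 to 14730081 counts set the precision. The TGFB1 share was compared with a two-sided exact permutation test. Promoter windows came from RefSeq.

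Same-numbered PT2385 and control libraries deviated together (r = 0.442, 0.123 and 0.416 over the 11000 genes with a mean of at least 5 CPM), so blocked values stand beside PT2385 results whose call or count they change. For KO 1 of the 3 correlations was under 0.1 in each comparison, and KO list counts are given without the block, which changed some of them. The alternatives were DESeq2 1.42.0, other scalings and filters, the replicate block, 1 model of all libraries, fits that each left out a library, and tests for changes above 1.5-fold. For the other pathway genes they were added after the data were seen. All members are named. Of each other list, up to 4 called genes with the largest change per control comparison are named, and EPAS1, EGLN3, SLC2A1 and VEGFA stand as checks. SMAD2, SMAD4, ID4, GDF11, JUNB, VIM and CSF1R were named after their values were seen. The members and lists were chosen with earlier results of these data known.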

Additional observations from a re-analysis of the deposited data

How the results depend on the processing

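With 3 libraries a group, small changes depended on single libraries. With PT2385, between 1 and 5 members and between 574 and 1451 of all genes were called over the 6 fits that each left out a library, against 5 and 1162. In KO these ranges were 8 to 9 members and 3344 to 5094 genes, and between KO and PT2385 they were 5 to 7 members and 1836 to 3190 genes. Testing for a change of more than 1.5-fold left 1 member and 172 genes with PT2385, 3 members and 882 genes in KO, and 3 members and 528 genes between KO and PT2385. The replicate block raised the PT2385 count of all genes to 2305 and the members called between KO and PT2385 from 5 to 8, adding INHBA (adjusted p = 0.0125), SMAD3 (0.00376) and SMAD7 (0.0174), and ended no call of a member. The labels link KO and the other 2 groups only by the replicate number. Deviations of same-numbered libraries correlated at r = 0.307, 0.0481 and 0.455 for KO and control, and at 0.337, 0.0764 and 0.397 for KO and PT2385. Scaling by RLE, upper quartile or library size, DESeq2, both filters and the model of all libraries kept the counts of members and of all genes within 1.5 times. LTBP1 could not be tested in KO with at least 10 counts in every library. A sign turned only for differences that were not called: over the fits without 1 library, with PT2385 the log2 fold change ran from -0.00 to 0.08 for TGFB2, -0.31 to 0.26 for TGFBR3, -0.16 to 0.14 for LTBP3 (-0.01 with the replicate block), -0.03 to 0.08 for BAMBI, -0.14 to 0.06 for BMPR1B and -0.00 to 0.08 for SMAD9, and between KO and PT2385 from -0.01 to 0.08 for TGFB1 and -0.07 to 0.00 for TGFBR1. The cause of these shifts was not tested.

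Depth limits LTBP1 in KO, at 1 to 5 counts per library, and TGFBR3 in control and PT2385, at 13 to 26.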
